A study of Homo sapiens with 3 samples.

Results

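Chromosome 5 held 1922 of the 35241 TEAD regions and 2787 of the 52667 H3K27ac regions called on chromosomes 1 to 22 and X in 786-O cells. A region is 1 peak of the authors' lists, and positions are hg19, counted from 1. Regions that ended at or before position 46400000 were assigned to the short arm, 5p, and regions that started after position 49400000 to the long arm, 5q. This gave 495 TEAD and 610 H3K27ac regions on 5p, and 1427 TEAD and 2177 H3K27ac regions on 5q. No region of either list lay between the bounds. The choice used position only and none of the values below.

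The series profiles 786-O, an established human clear cell renal carcinoma line, by chromatin immunoprecipitation sequencing for TEAD and for acetylated histone H3K27ac, beside an input library. All 3 libraries came from the same line in the same medium, with no treatment or genotype contrast named in the labels, and each antibody has 1 library. Peaks of the TEAD list are named after TEF1 and TEF3, older names of TEAD proteins, and the labels describe the antibody no further. The question put to chromosome 5 was whether its arms differ in region density, in the overlap of TEAD with H3K27ac, and in the background that the peak caller used.

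TEAD proteins bind DNA and recruit the co-activators YAP and TAZ, the effectors of the Hippo pathway, largely at enhancers. H3K27ac is laid down on nucleosomes that flank active enhancers and promoters, so it marks where a bound factor sits in active chromatin. Gain of the long arm of chromosome 5 is one of the most frequent chromosomal changes in clear cell renal carcinoma, after loss of 3p, and SQSTM1, which encodes the autophagy adaptor p62, has been proposed as a target of the gain. In any ChIP experiment, DNA present in more copies gives more reads, in the immunoprecipitate and in the input alike. DNA copy number was not measured here.

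With 1 library per antibody, no difference between the arms could be tested over samples, and no p-value is given. Intervals are 95% intervals over regions or reads, exact Poisson for counts, Wilson for shares and large-sample for means. They cover counting error only, and neighbouring regions share their background, so intervals on means are narrow. The reads behind each summit (pileup) and the caller's local background were solved from the fold and the −log10 p that the authors deposited. In both lists 100% of regions had a whole-number pileup that fitted these values, to 0.002 in −log10 p. The lowest background was 1.30 reads in the TEAD list and 1.45 in the H3K27ac list, and values within 0.01 reads of these are called the floor. Neither the number of sequenced reads nor the control behind the background is stated in the sources used here, and the backgrounds of the lists are not independent if they came from the same control.

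The background was higher on 5p than on 5q in both lists. At H3K27ac regions it averaged 3.81 ± 1.28 reads on 5p and 2.71 ± 1.12 reads on 5q (SD over 610 and 2177 regions), a ratio of 1.41 (95% interval 1.36 to 1.45). At TEAD regions it averaged 3.42 ± 1.96 reads on 5p and 2.49 ± 1.10 reads on 5q (SD over 495 and 1427 regions), a ratio of 1.38 (1.30 to 1.45). Regions at the floor made up 2 of the 610 H3K27ac regions on 5p (0.328%), against 346 of the 2177 on 5q (15.9%), with 6.33% over all chromosomes. For TEAD the floor held 4 regions on 5p (0.808%) and 181 on 5q (12.7%), with 6.03% over all chromosomes. Because the floor sets a lower limit on the means, these ratios are not ratios of control signal. Above the floor the ratio was 1.29 in both lists.

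The 5q average covered a step in the background inside the long arm. In bins of 5 Mb with at least 20 H3K27ac regions, the 7 bins of 5p lay between 3.51 and 4.12 reads. On 5q the 10 bins next to the centromere lay between 1.78 and 1.99 reads and the 15 bins further out between 2.78 and 3.39. Among these bins the ranges of the 3 stretches did not overlap. The inner and outer stretches of 5q were divided by this same H3K27ac background, so their separation is a description. TEAD bins had ranges of 3.19 to 4.03 reads on 5p, 1.57 to 1.84 in the inner stretch of 5q and 2.39 to 3.28 in the outer stretch, so the outer stretch and 5p overlapped there. The value of 4.03 belongs to the bin at the tip of 5p, which has a median of 2.89 reads. It holds 1 TEAD region with a background of 38.6 reads. The bin that holds the step and the bin across the centromere were left out of these ranges. So were bins of fewer than 20 regions, some of which broke this order. At H3K27ac regions the 5p bins from 20 to 25 Mb and from 25 to 30 Mb had 2.72 and 2.69 reads (7 and 18 regions). The bin of the outer stretch from 160 to 165 Mb had 3.54 reads (8 regions).

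**Figure D1:**
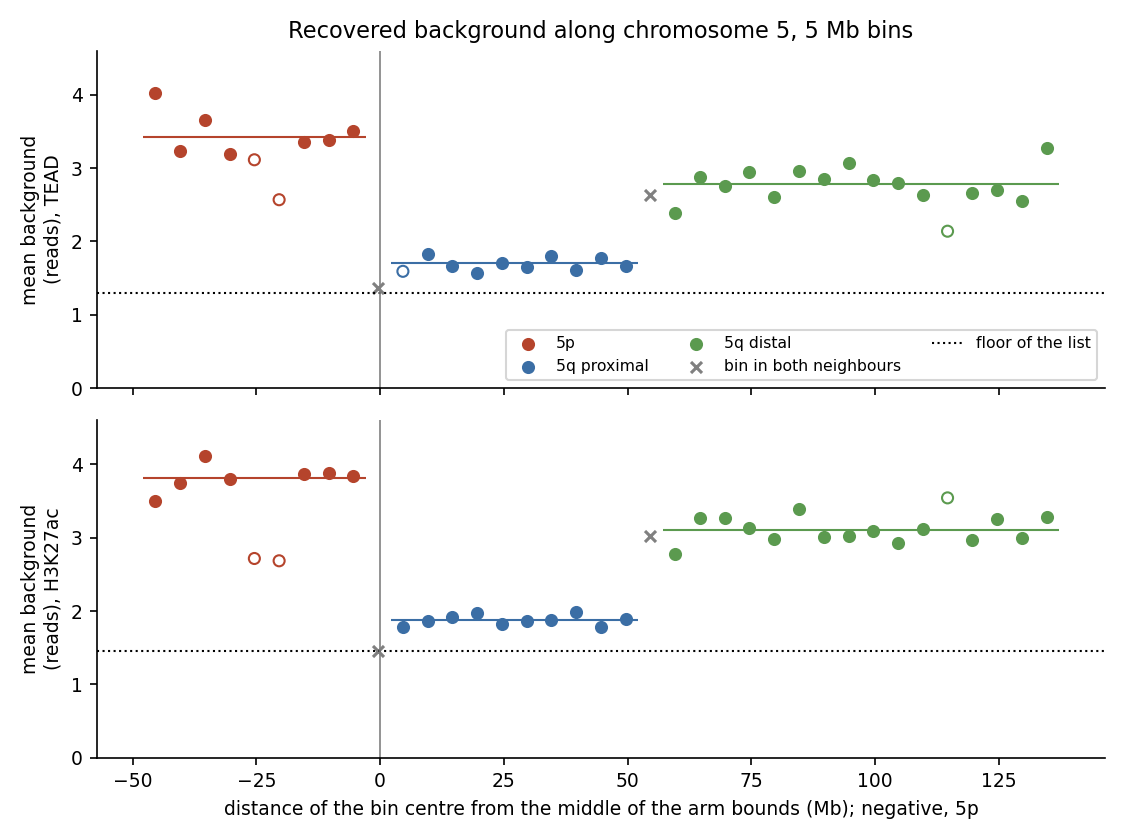
Mean recovered background (reads) of TEAD regions (upper panel) and H3K27ac regions (lower panel) in 5 Mb bins, against the distance of the bin from the middle of the arm bounds (Mb). Filled points have at least 20 regions, open points fewer. Lines are the means of the stretches and the dotted line is the floor. Among the means of the stretches, 5p is the highest, the inner stretch of 5q the lowest and the outer stretch of 5q between them.

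The step was placed by the split of 5q that left the least squared error in log2 background. In the H3K27ac list it fell between a region ending at 100426988 and a region starting at 100427212. In the TEAD list it fell between 99606344 and 100126040. Few regions lie there, and a stretch of 1.59 Mb with no region of either list begins at 100427788, so the position is resolved to about 1 Mb at best. The H3K27ac position is used below to divide 5q into a proximal stretch of 51.0 Mb and a distal stretch of 80.4 Mb. The division was chosen from the background, so the backgrounds of the stretches are a description. Densities and overlap shares can move with background, so their differences between stretches are a description too. Their intervals below do not allow for the choice of the split. The split took up 34.7% of the variance of log2 background along 5q at H3K27ac regions and 26.97% at TEAD regions. The best split inside 5p took up 1.16% and 0.760%. Over the whole chromosome the arms alone took up 14.2% of this variance at H3K27ac regions, and the 3 stretches 39.4%.

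At H3K27ac regions the mean background was 3.81 reads on 5p, 1.88 in proximal 5q and 3.10 in distal 5q. At TEAD regions it was 3.42 reads on 5p, 1.71 in proximal 5q and 2.79 in distal 5q. The floor held 1.69% of H3K27ac regions in distal 5q and 46.2% in proximal 5q. Among H3K27ac regions above the floor, 5p exceeded proximal 5q by a ratio of 1.70 and distal 5q by 1.22. Distal 5q exceeded proximal 5q by 1.40 on the same basis. No intervals are given for these ratios, because the split was chosen from the same background values.

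Set beside the means of the other chromosomes taken whole, 5p and proximal 5q, the latter chosen for its low background, lay at or near the ends. The mean on 5p was above that of each of the 22 other chromosomes in both lists. At TEAD regions this rested on 1 region at the tip of 5p with a background of 38.6 reads. With that region the TEAD mean was 3.42 reads on 5p, against 3.38 on chromosome 8. Without it 5p falls below chromosome 8. Proximal 5q was below 21 of the 22 in both lists, with chromosome 13 alone lower. Distal 5q was higher than 17 of the 22 at H3K27ac regions and higher than 13 at TEAD regions. Averaged over both arms, chromosome 5 stood in the middle, with a mean at H3K27ac regions of 2.95 reads against a median of 2.98 over the 22 others. Its highest 5 Mb bin was 2.31 times its lowest at H3K27ac regions, the second highest such ratio of 23 chromosomes, against a median of 1.32 over the 22 others. Chromosome 8 had the higher one, at 2.80. Such a ratio can grow with the number of bins, which was 33 on chromosome 5. It ran from 6 on chromosome 21 to 46 on chromosomes 1 and 2. At TEAD regions the ratio of chromosome 5 was 2.56, the third highest, against a median of 1.51, with the highest of 3.03 on chromosome 22. The highest TEAD bin of chromosome 5 was that at the tip of 5p, with its 1 region of very high background. The other chromosomes were not divided into arms or stretches, and some of their single bins went further at H3K27ac regions. The highest bin had 4.95 reads on chromosome 1 and 4.79 on chromosome 8, against 4.12 on chromosome 5. The lowest bin had 1.66 reads on chromosome 13 and 1.71 on chromosome 8, against 1.78 on chromosome 5.

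**Figure D2:**
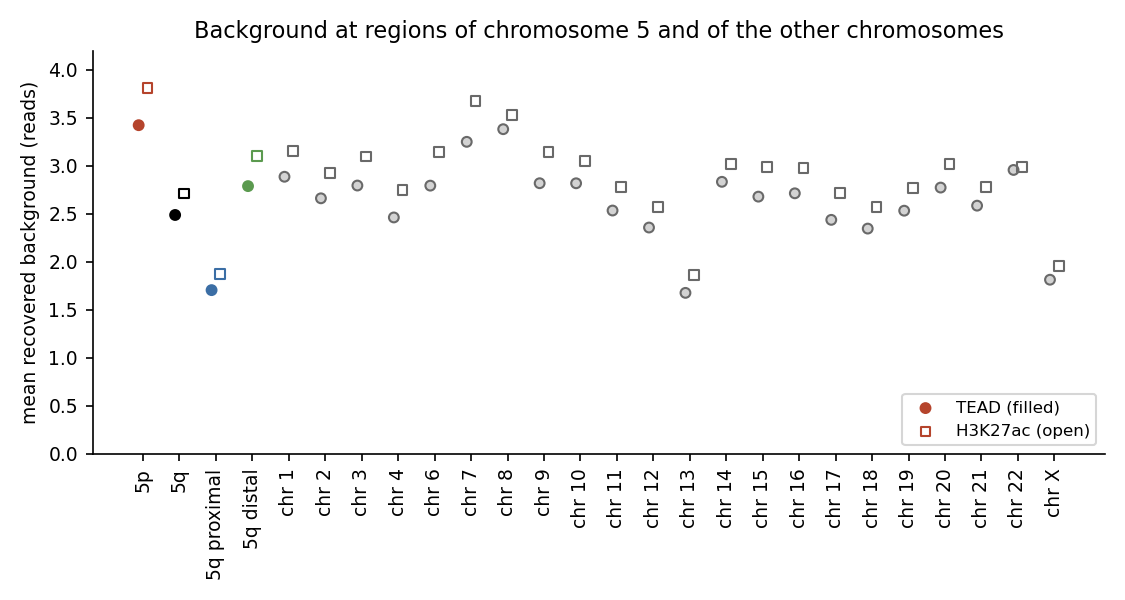
Mean recovered background (reads) at TEAD regions (filled circles) and H3K27ac regions (open squares) for 5p, 5q, both stretches of 5q and each other chromosome. 5p lies above all other chromosomes taken whole, and proximal 5q lies beside chromosomes 13 and X.

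TEAD regions were about as dense on 5p as on 5q, and H3K27ac regions were less dense on 5p. TEAD had 10.7 regions per Mb on 5p (9.75 to 11.7) and 10.9 per Mb on 5q (10.3 to 11.4), a ratio of 0.983 (0.886 to 1.09). H3K27ac had 13.1 regions per Mb on 5p (12.1 to 14.2) and 16.6 per Mb on 5q (15.9 to 17.3), a ratio of 0.794 (0.725 to 0.869). Lengths were 46.4 Mb for 5p and 131 Mb for 5q, counted from its bound to the end of its last region. The H3K27ac ratio turned to 1.11 when stretches of over 1 Mb without a region were left out, and the TEAD ratio then was 1.38.

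Empty sequence was more common on 5p. Stretches of over 1 Mb without a region of either list made up 18.9 Mb (40.7%) of 5p and 22.2 Mb (16.8%) of 5q, each with its part of the stretch across the centromere. The longest on the chromosome lay on 5p from 21702374 to 27217267, over 5.51 Mb. The next on that arm ran from 1802055 to 4873432 (3.07 Mb) and from 10976482 to 13408678 (2.43 Mb). On 5q the longest ran from 163014045 to 166336852, over 3.32 Mb. Between its deserts 5p was dense, with up to 95 TEAD and 138 H3K27ac regions in a 5 Mb bin. The thinnest bin wholly on 5p held 7 of each.

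Within 5q the proximal stretch was sparse in both lists. Distal 5q had 12.8 TEAD regions per Mb and proximal 5q 7.76, a ratio of 1.65 (1.47 to 1.86). For H3K27ac the values were 18.4 per Mb in distal and 13.6 per Mb in proximal 5q, a ratio of 1.35 (1.24 to 1.48). Against proximal 5q, 5p had 1.37 times the TEAD density (1.20 to 1.57) and 0.965 times the H3K27ac density (0.864 to 1.08). Against distal 5q, 5p had 0.832 times the TEAD density (0.746 to 0.927) and 0.714 times the H3K27ac density (0.648 to 0.785). The pooled TEAD ratio near 1 thus averaged a sparser and a denser stretch of 5q.

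**Figure D3:**
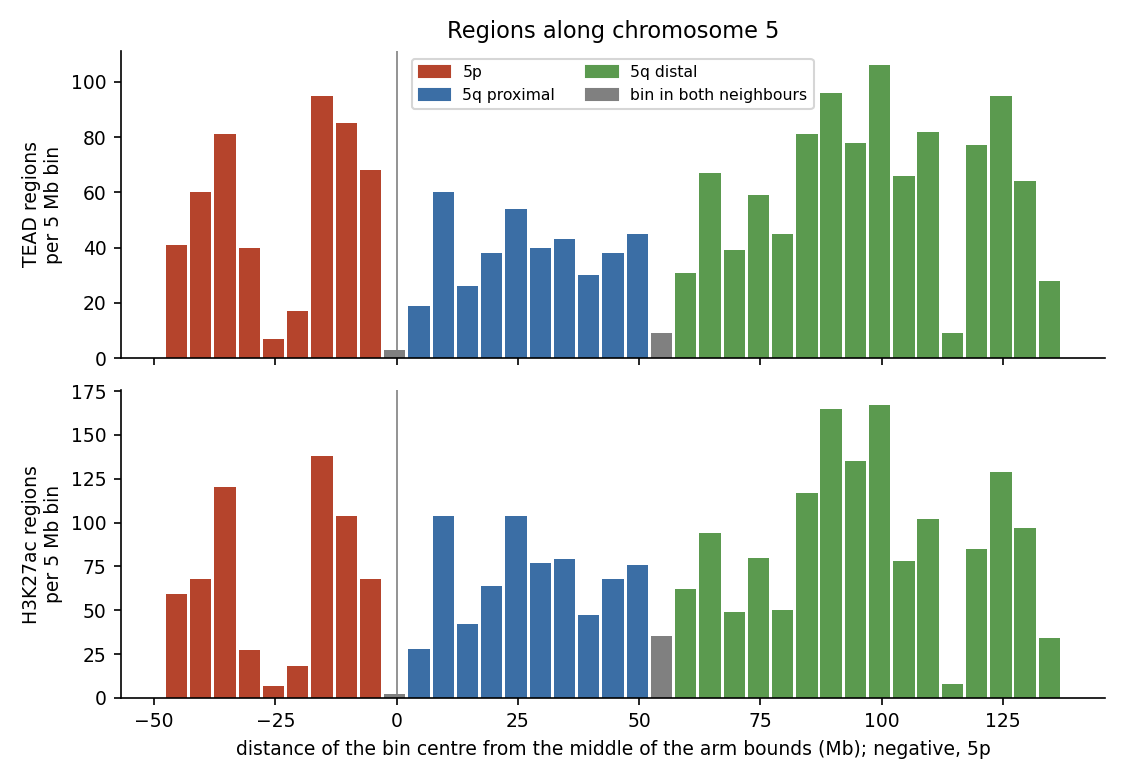
Number of TEAD regions (upper panel) and H3K27ac regions (lower panel) in each 5 Mb bin, against the distance of the bin from the middle of the arm bounds (Mb). On 5p, bins of up to 95 TEAD and 138 H3K27ac regions flank bins with 7 of each; the proximal stretch of 5q reaches 60 TEAD and 104 H3K27ac regions, the distal stretch 106 and 167.

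Summits on 5p had more reads than those on 5q, but not a higher fold. Median pileup at TEAD summits was 29 reads on 5p (interquartile range 20 to 44) and 24 on 5q (17 to 39). At H3K27ac summits it was 25 reads on 5p (17 to 48) and 21 on 5q (15 to 39). Mean log2 pileup was higher on 5p by 0.29 in both lists (0.20 to 0.39 for TEAD, 0.21 to 0.38 for H3K27ac). Fold was not higher. Median TEAD fold was 7.08 on 5p and 7.39 on 5q, with a difference in mean log2 fold of -0.06 (-0.15 to 0.02). Median H3K27ac fold was 5.75 on 5p and 6.41 on 5q, with a difference in mean log2 fold of -0.11 (-0.18 to -0.03). Fold is pileup over background, so the higher background on 5p enters it directly.

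Proximal 5q was set apart by its low background, which enters fold, so its counts by pileup and by fold are a description only. H3K27ac summits of at least 80 reads numbered 79 on 5p, 1 in proximal 5q and 122 in distal 5q, or 1.70, 0.0196 and 1.52 per Mb. H3K27ac summits of at least 20-fold numbered 29 on 5p, 22 in proximal 5q and 83 in distal 5q, or 0.625, 0.431 and 1.03 per Mb. TEAD summits of at least 80 reads numbered 50 on 5p, 14 in proximal 5q and 78 in distal 5q, or 10.1%, 3.54% and 7.57% of TEAD regions. TEAD summits of at least 20-fold numbered 40 on 5p, 36 in proximal 5q and 91 in distal 5q. These were similar shares of TEAD regions, at 8.08%, 9.09% and 8.83%. Of the 100 H3K27ac summits of highest pileup on the chromosome, 43 lay on 5p, 1 in proximal 5q and 56 in distal 5q. Ranked by fold, 21 lay on 5p, 17 in proximal 5q and 62 in distal 5q. For comparison, 21.9% of the chromosome's H3K27ac regions lay on 5p, 24.9% in proximal 5q and 53.2% in distal 5q.

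At the weak end the lists also reached different depths. The lowest 5% of TEAD regions had at most 15 reads at the summit on 5p, 11 in proximal 5q and 13 in distal 5q. For H3K27ac these values were 13, 10 and 12 reads. Regions of under 20 reads made up 34.1% of H3K27ac regions on 5p, 57.3% in proximal 5q and 39.5% in distal 5q. The density of TEAD regions with at least 20 reads was 1.20 times as high on 5p as on 5q (1.07 to 1.36), and that of TEAD regions of at least 5-fold 0.929 times (0.827 to 1.04). Region widths differed little: median TEAD width was 463 bp on 5p and 451 bp on 5q, and median H3K27ac width 876 bp on 5p and 882 bp on 5q.

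**Figure D4:**
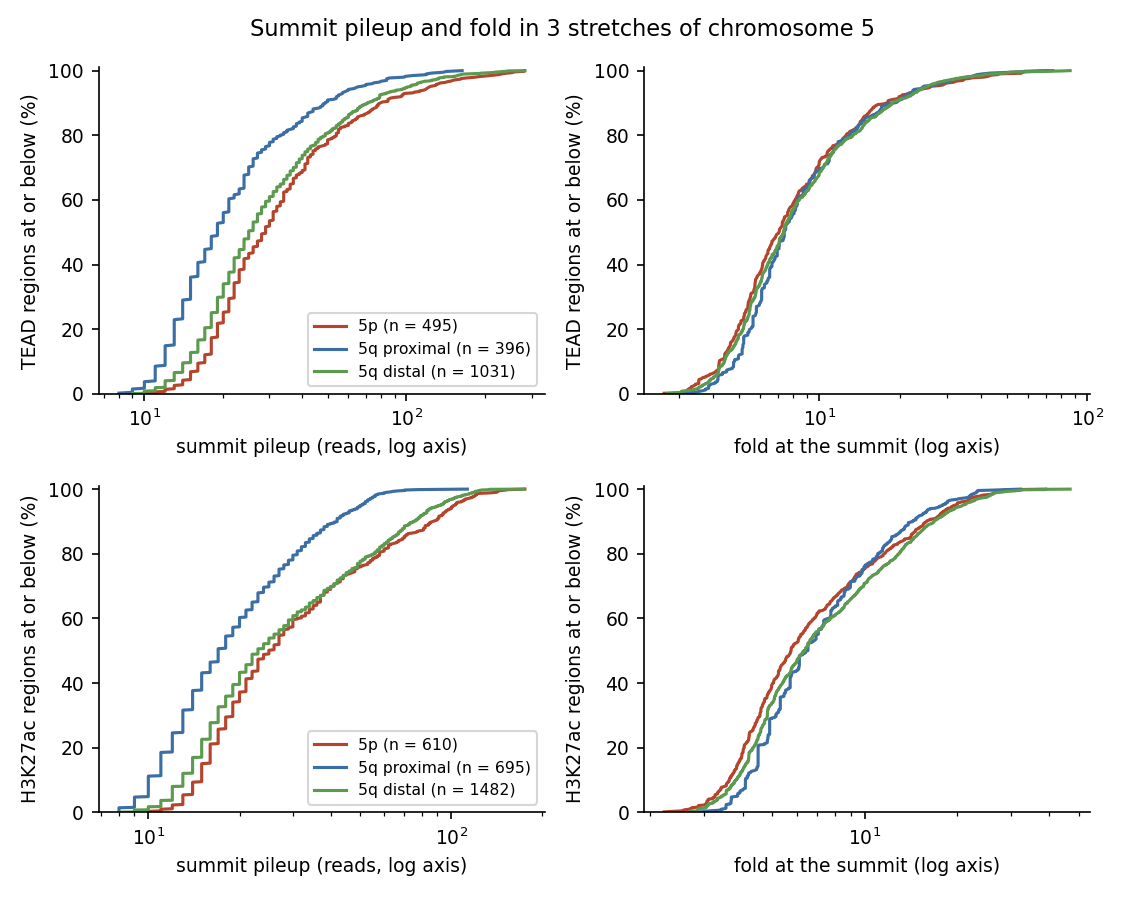
Cumulative share of TEAD regions (upper row) and H3K27ac regions (lower row) by summit pileup (left, log axis) and by fold (right, log axis) on 5p, in proximal 5q and in distal 5q. By pileup, proximal 5q is shifted to low values, with medians of 19 reads for TEAD and 17 for H3K27ac; by fold the curves lie close together.

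The share of TEAD regions that touched H3K27ac did not differ measurably between the arms. On 5p 327 of 495 TEAD regions overlapped H3K27ac by 1 bp or more and are called marked, 66.1% (61.8 to 70.1%). On 5q 950 of 1427 did, 66.6% (64.1 to 69.0%), with 68.4% over all chromosomes. The difference was -0.513 points (-5.42 to 4.23). Distal 5q had a marked share of 68.7% and proximal 5q one of 61.1%, a difference of 7.56 points (2.06 to 13.2). These stretches were divided by background, so this difference is a description only. Averaged over genome-wide background quintiles with equal weights, the marked share was lower on 5p than on 5q by 17.2 points (11.1 to 23.2). In the quintile of lowest background 4 of 17 regions on 5p and 205 of 427 on 5q were marked. In that of highest background 79.3% of 179 on 5p and 84.8% of 224 on 5q were marked. The quintiles hold few regions of 5p at the low end, and background and arm move together, so their parts in the marked share cannot be told apart.

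Most of these contacts placed the TEAD summit inside H3K27ac. The summit lay inside for 50.7% of TEAD regions on 5p (46.3 to 55.1%) and 51.7% on 5q (49.1 to 54.3%), with 55.3% over all chromosomes. A further 15.4% on 5p and 14.9% on 5q touched H3K27ac with the summit outside it. Unmarked TEAD regions lay a median of 9.43 kb from the nearest H3K27ac region on 5p and 13.6 kb on 5q. TEAD regions over 50 kb from H3K27ac made up 27 of 495 on 5p, 5.45% (3.78 to 7.82%), and 117 of 1427 on 5q, 8.20% (6.89 to 9.74%), with 7.24% over all chromosomes, inside both intervals. Of those on 5q, 43 were in proximal 5q, where they were 10.9% of TEAD regions (8.16 to 14.3%). Marked TEAD regions had a median fold of 7.28 on 5p and 7.77 on 5q. Unmarked ones had 6.78 on 5p and 6.86 on 5q.

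H3K27ac regions carried TEAD more often on 5p, before background was taken into account. On 5p 292 of 610 H3K27ac regions held at least 1 TEAD region, 47.9% (43.9 to 51.8%). On 5q 882 of 2177 did, 40.5% (38.5 to 42.6%), with 41.7% over all chromosomes. The difference was 7.35 points (2.90 to 11.8). It was 12.6 points (7.26 to 17.9) against proximal 5q, where the share was 35.3%, and 4.89 points (0.202 to 9.57) against distal 5q, where it was 43.0%. With equal weights over background quintiles the difference was 2.35 points (-3.99 to 8.69), and in the quintile of highest background the share was 54.5% on 5p and 51.1% on 5q. There were 0.811 TEAD regions per H3K27ac region on 5p, 0.570 in proximal 5q and 0.696 in distal 5q, against a median of 0.670 over the 22 other chromosomes.

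**Figure D5:**
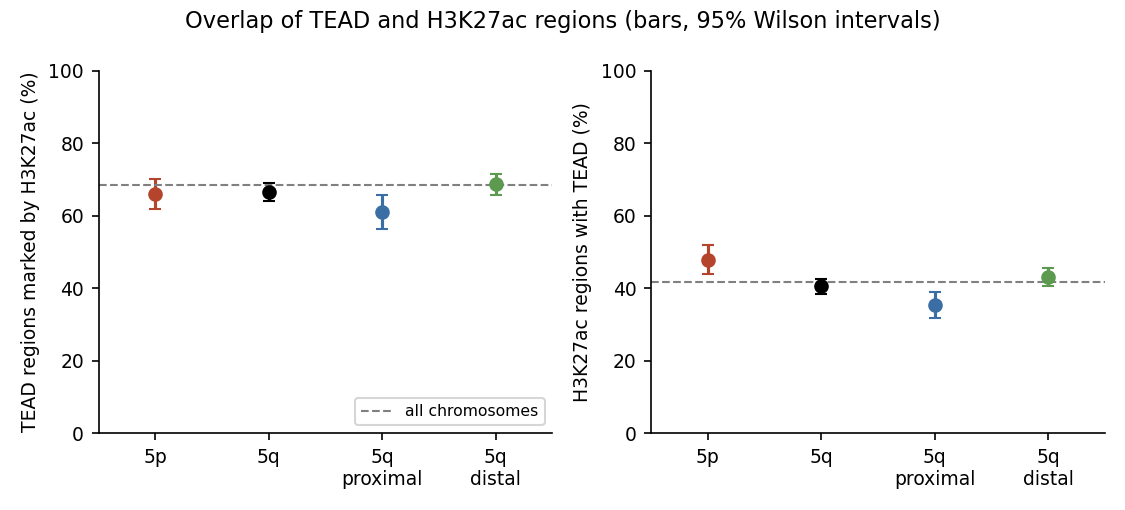
Share of TEAD regions that overlap H3K27ac (left) and share of H3K27ac regions that hold TEAD (right) on 5p, 5q and both stretches of 5q, with 95% Wilson intervals; dashed lines are the shares over all chromosomes. The TEAD share is 66.1% on 5p and 66.6% on 5q, and the H3K27ac share is 47.9% on 5p and 40.5% on 5q.

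H3K27ac regions with TEAD were the stronger and wider ones on both arms. Their median fold was 8.77 on 5p and 8.98 on 5q, while regions without TEAD had 4.64 on 5p and 5.31 on 5q. Their median width was 1661 bp on 5p and 1546 bp on 5q, while regions without TEAD had 633.5 bp on 5p and 640.0 bp on 5q. Over all chromosomes the medians were close to these, at 9.63-fold and 1646.5 bp with TEAD and 5.31-fold and 659 bp without. A wider region has more room to share 1 bp with TEAD, and the part of width in this contrast was not tested. At least 3 TEAD regions were held by 10 of 610 H3K27ac regions on 5p, 1.64% (0.893 to 2.99%), and by 25 of 2177 on 5q, 1.15% (0.779 to 1.69%), with 1.27% over all chromosomes, inside both intervals. Within 5q these were 23 of 1482 in the distal stretch (1.55%) and 2 of 695 in the proximal stretch (0.288%). No H3K27ac region on the chromosome held more than 5.

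All 8 TEAD regions of highest fold on 5p overlapped H3K27ac, with summit pileups of 191 to 282 reads and folds of 43.6 to 74.4. Over all chromosomes 68.4% of TEAD regions of any fold were marked. The highest lay from 10551175 to 10552087, with 282 reads over a background of 2.81 and a fold of 74.4 (counting interval 66.0 to 83.5), in an H3K27ac region of 4228 bp at 14.7-fold. The next were a region from 39623291 to 39624061 (58.1-fold), one from 9621340 to 9622109 (58.1-fold), one from 1326472 to 1329210 (57.2-fold) and one from 42950474 to 42951325 (56.6-fold). Their counting intervals overlapped, so their order is not resolved. The H3K27ac summits under the 8 regions ranged from 5.54- to 23.1-fold, so a strong TEAD summit did not come with H3K27ac of any fixed strength.

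The 8 strongest TEAD regions of 5q had folds of 52.2 to 86.2, and 7 were marked. The highest lay from 176621066 to 176621874, with 243 reads over a background of 1.83 and a fold of 86.2 (75.7 to 97.7). It bridged 2 H3K27ac regions, the stronger of them 9.92-fold. The next, from 167241694 to 167242452, reached 80.8-fold over an H3K27ac region of 5.82-fold. Of the 8, 3 lay in proximal 5q, and all of these sat on a background at the floor. The region from 54185427 to 54186184 had 163 reads and a fold of 71.4 (60.9 to 83.2). It had fewer reads than any of the 8 strongest on 5p. Its fold was above those of 7 of them, but its counting interval overlapped those of the 5 highest on 5p, so its place among these is not resolved. The others in proximal 5q were a region from 83545465 to 83546321 (142 reads, 62.2-fold) and one from 57133323 to 57134136 (119 reads, 52.2-fold).

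Strong TEAD regions without H3K27ac were found in both stretches of 5q. The strongest lay from 148381402 to 148382242, with 283 reads, the highest TEAD pileup on the chromosome, and a fold of 74.1 (65.8 to 83.3). Others in distal 5q lay from 131150552 (50.03-fold), from 173250992 (42.8-fold) and from 175236623 (41.3-fold). In proximal 5q unmarked TEAD regions lay from 71766550 (37.0-fold, 84 reads) and from 53996806 (35.3-fold, 80 reads), both over a background at the floor. On 5p the 4 strongest unmarked regions reached 20.3- to 25.1-fold, the highest of them from 30279177 to 30279852 with 130 reads and a counting interval of 21.0 to 29.8. Of the 100 TEAD regions of highest fold on the chromosome, 27 of the 28 on 5p were marked, 14 of the 19 in proximal 5q and 45 of the 53 in distal 5q. The marked share of TEAD regions of such fold on other chromosomes was not computed, so these counts have no matched reference.

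The strongest H3K27ac region of 5p lay from 38844509 to 38849126. It had 175 reads, the highest H3K27ac pileup on the chromosome, a fold of 38.9 (33.4 to 45.1) and a TEAD region of 34.4-fold. The region from 10352846 to 10354961, at 27.3-fold, was the only one of the 5 strongest on 5p without TEAD. All 5 of the strongest on 5q lay in the distal stretch and held TEAD. Over all chromosomes 41.7% of H3K27ac regions of any fold held TEAD. The median width of all H3K27ac regions was 950 bp, while these 5 were 4193 to 9304 bp wide. The highest on 5q, from 149864259 to 149873562, had 174 reads and a fold of 46.8 (40.1 to 54.2) with 3 TEAD regions, none above 8.51-fold. The counting intervals of these top regions of the arms overlapped.

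Large acetylated domains were more numerous in distal 5q, but as a share of its domains they were near that over all chromosomes. Neighbouring H3K27ac regions no more than 12500 bp apart were joined into domains. All domains of the genome were ordered by their summed product of fold and width, and the 863 beyond the bend of that curve (slope 1) were called large. They were 5 of 269 domains on 5p, 1.86% (0.796 to 4.28%), and 34 of 948 on 5q, 3.59% (2.58 to 4.97%), with 3.82% over all chromosomes, inside both intervals. Per Mb this was 0.108 on 5p (0.0350 to 0.251) and 0.259 on 5q (0.179 to 0.361), and the intervals overlapped. Within 5q, 29 of 617 domains of the distal stretch were large, 4.70% (3.29 to 6.67%), or 0.361 per Mb. This interval also holds the share over all chromosomes. In the proximal stretch 5 of 331 were large, 1.51% (0.647 to 3.49%), or 0.0980 per Mb, close to 5p. The top domain of 5p ranked 36 in the genome and spanned 110 kb from 14140143 to 14250163, with 24 H3K27ac and 15 TEAD regions of a median fold of 5.43 and at most 9.76. The second, from 42985965 to 43069180, held 13 of each, with TEAD of a median fold of 5.22 and at most 15.4. The third, from 31096345 to 31133967, held 5 TEAD regions with a median fold of 9.34 and at most 14.5.

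The strongest TEAD region in each of the top 3 domains of 5q had a higher fold than any in the top 3 of 5p, while the median folds overlapped. The highest, ranked 9 in the genome, lies from 149828167 to 149904294, and its 14 TEAD regions had a median fold of 11.5 and at most 65.4. The second, ranked 20, spanned 141 kb from 139004488 to 139145846 with 29 H3K27ac and 17 TEAD regions of a median fold of 7.86 and at most 32.3. The third, from 135328811 to 135403270, held 11 TEAD regions with a median fold of 7.78 and at most 37.1. Mean background in these domains was 4.43, 4.02 and 4.19 reads in the 3 of 5p, and 3.12, 2.76 and 3.17 reads in the 3 of 5q, and the part of the background in these folds was not tested. The domain rank is built on fold and so also depends on the background.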

How the data were processed

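Peak lists of 1 TEAD and 1 H3K27ac library of 786-O cells were used; no input file was used here. Per the labels' protocols, cells were fixed with 1% formaldehyde for 10 min and libraries were selected at 300 to 700 bp. Per the submitters' processing notes, fastp, Bowtie2 2.4.5 and MACS2 were named, with build hg19; they state no roles, thresholds or control. For each peak the authors deposited a fold at the summit, a −log10 p and −log10 q, a score (not used) and the summit offset.

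A whole pileup k and a background b were solved so that (k + 1)/(b + 1) gave the fold and the Poisson tail above k gave p; the solver was tested on simulated data. Chromosome Y was left out. Overlap meant at least 1 bp. Python 3.11.15, numpy 2.4.6, scipy 1.17.1 and pandas 2.3.3 were used. Named regions were, per arm, the 8 strongest TEAD, 4 strongest unmarked TEAD, 5 strongest H3K27ac regions, 3 top domains, the region of highest background in each list and those nearest the bounds. No hg19 annotation or sequence was used here, so regions are named by position. Members and lists were chosen with earlier results of these data known.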

Additional observations from a re-analysis of the deposited data

How the results depend on the processing

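Of 63 alternatives for 8 results, 46 were planned and 17 chosen after the data were seen. The value stayed within the 95% interval of the reported one in 38 and outside it, on the same side or with an unresolved sign, in 23; 2 turned the direction. Leaving out stretches of over 1 Mb without a region gave density ratios of 5p over 5q of 1.38 for TEAD and 1.11 for H3K27ac, which turned the H3K27ac ratio round. With at least 20 reads they were 1.20 for TEAD and 0.955 for H3K27ac. For H3K27ac the ratio was 0.709 at 5-fold or more and 0.717 without the busiest bin of each arm. Pileup in place of fold gave log2 differences of 0.29 for TEAD and 0.29 for H3K27ac, which turned the H3K27ac difference round. Equal weights over background quintiles gave -17.2 points for the marked share and 2.35 points for H3K27ac with TEAD. The background ratio was 1.29 above the floor in both lists, 1.46 over 5 Mb bins in both lists and 1.46 at unmarked TEAD regions. Against proximal 5q alone the density ratios were 1.37 (TEAD) and 0.965 (H3K27ac), the share differences 4.95 and 12.6 points, and the background ratios 2.03 (H3K27ac) and 2.01 (TEAD). Against distal 5q alone the density ratios were 0.832 (TEAD) and 0.714 (H3K27ac) and the background ratio 1.23 in both lists. The causes of these shifts were not tested. No paired analysis was possible because each antibody has 1 library. Summit pileups of 7 reads or more set what the lists can show, and a missing region is not shown to lack signal.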

Other observations

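The regions of 5p nearest the centromere had backgrounds at or near the floor. The last TEAD region of 5p, from 45385563 to 45386170, had a background of 1.30 reads and the last H3K27ac region, from 45385319 to 45385833, one of 1.45 reads, both at the floor. The H3K27ac region before it, starting at 44885364, had 1.54 reads. Next further out, H3K27ac and TEAD regions that start near 44808904 had 2.82 and 3.51 reads. Before these, the H3K27ac regions from 43514247 to 43603817 had 4.43 to 5.64 reads and the TEAD region from 43555930 had 2.83 reads. The floor was not confined to this end of 5p. It also held the TEAD regions from 6118867, from 10976082 and from 31722764 and the H3K27ac region from 321386, each with 10 or 13 reads at the summit. On the other side the first regions of 5q, near 49962125, had 1.45 reads (H3K27ac) and 1.40 reads (TEAD). The regions named here were singled out after their values were seen.

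The highest background on the chromosome was 38.6 reads, at a TEAD region from 10104 to 11727 at the tip of 5p, with 122 reads and a fold of 3.11. It overlapped no H3K27ac region. Without it the background ratio of 5p over 5q at TEAD regions was 1.35. The next highest on 5p was 9.88 reads, at an H3K27ac region from 14177209 to 14180947 in the arm's top domain. On 5q the highest were 8.47 reads, at an H3K27ac region from 172215738 to 172222942 that held 3 TEAD regions, and 8.42 reads, at a TEAD region from 142625350 to 142625917.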
